A study of Mus musculus with 30 samples.

Results

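The genes described here encode the parts of the mouse proteasome whose composition is known to change under interferon. They are the immunoproteasome subunits Psmb8, Psmb9 and Psmb10, both subunits of the PA28 activator, Psme1 and Psme2, and the standard catalytic subunits that the immuno subunits replace, Psmb5, Psmb6 and Psmb7. The 8 genes were chosen by symbol from the 54146 genes of the count table. No measured value was in the rule, but earlier results of these data were known. All 8 had enough counts to be tested in every comparison. RNA-seq was done on J774A.1 cells, an immortalized macrophage-like mouse line. WT1, WT2 and WT3 are clones of unedited cells, and KO1 and KO2 are clones with a homozygous CRISPR deletion of B2_Mm2.Dicer1, a B2 SINE copy in an intron of Dicer1. Cells of each clone were left untreated (UT) or received 100 ng/mL recombinant mouse IFNG for 4 h, and each clone and treatment has 3 libraries, which makes 18 WT and 12 KO libraries. The WT clones grew from single cells as the KO clones did, but they were never electroporated, so an effect of the deletion cannot be told apart from one of electroporation or of the choice of clone. Each line is 1 clone, and no source used here says that the 3 libraries came from separate cultures. P-values therefore measure the spread between libraries, which may be technical. The main fits that pool clones, within a genotype or for KO against WT, had no term for the clone. Their p-values and SE therefore also hold the differences between clones.

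The core particle of the proteasome cuts proteins with 3 kinds of catalytic subunit. Psmb5 carries the chymotrypsin-like activity, Psmb6 the caspase-like activity and Psmb7 the trypsin-like activity. In particles assembled under interferon, Psmb8 (LMP7) takes the place of Psmb5, Psmb9 (LMP2) that of Psmb6, and Psmb10 (MECL-1) that of Psmb7. Psme1 and Psme2 (PA28 alpha and beta) form a ring that docks on the ends of the core particle and opens it. Peptides cut by these particles are carried into the endoplasmic reticulum by the Tap1 and Tap2 transporter and are presented on MHC class I molecules. Promoters that answer to IFNG often hold gamma-activated sequences (GAS) or interferon-stimulated response elements (ISRE), and IRF1 binds the latter. Only RNA was measured here, so the values below are transcript levels and not the composition of proteasomes.

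Promoter windows of 5 of the genes are shown because they hold the motif matches referred to below or, for Psmb9, because the window is shared with Tap1. Each window runs from 250 bases before to 50 bases after a RefSeq start (GRCm38.p6, the same assembly as mm10) and is written 5′ to 3′ on the strand of the gene. Psmb8 is chr17:34197945-34198244 on the plus strand, with a GAS match in capitals. Psmb9 is chr17:34187281-34187580 on the minus strand, and its capitals mark the 275 of 300 bases that also lie in the window of Tap1, which is read from the other strand. Psme1 is chr14:55578244-55578543 on the plus strand, with a match to the ISRE core in capitals. Psmb5 is chr14:54617946-54618245 on the minus strand and Psmb6 is chr11:70525107-70525406 on the plus strand, each with a match to the antioxidant response element (ARE) in capitals.
Psmb8: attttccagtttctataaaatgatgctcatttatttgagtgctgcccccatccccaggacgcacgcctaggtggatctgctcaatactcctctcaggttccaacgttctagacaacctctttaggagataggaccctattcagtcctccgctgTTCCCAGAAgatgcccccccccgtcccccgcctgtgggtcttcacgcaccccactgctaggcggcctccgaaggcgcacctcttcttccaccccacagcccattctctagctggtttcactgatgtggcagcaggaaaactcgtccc
Psmb9: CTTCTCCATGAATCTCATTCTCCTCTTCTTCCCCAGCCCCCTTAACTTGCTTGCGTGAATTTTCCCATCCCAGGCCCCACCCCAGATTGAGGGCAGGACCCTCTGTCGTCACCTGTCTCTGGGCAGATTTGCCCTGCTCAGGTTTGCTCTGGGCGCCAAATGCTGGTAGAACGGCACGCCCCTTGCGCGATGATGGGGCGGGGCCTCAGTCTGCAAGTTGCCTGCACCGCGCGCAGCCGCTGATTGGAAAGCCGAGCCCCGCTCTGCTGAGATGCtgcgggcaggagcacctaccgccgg
Psme1: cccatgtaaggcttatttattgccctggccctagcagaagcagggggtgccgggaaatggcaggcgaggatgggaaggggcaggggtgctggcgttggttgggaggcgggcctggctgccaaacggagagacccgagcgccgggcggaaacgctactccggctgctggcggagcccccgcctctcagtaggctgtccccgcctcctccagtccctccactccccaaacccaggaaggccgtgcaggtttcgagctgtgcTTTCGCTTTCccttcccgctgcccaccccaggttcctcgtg
Psmb5: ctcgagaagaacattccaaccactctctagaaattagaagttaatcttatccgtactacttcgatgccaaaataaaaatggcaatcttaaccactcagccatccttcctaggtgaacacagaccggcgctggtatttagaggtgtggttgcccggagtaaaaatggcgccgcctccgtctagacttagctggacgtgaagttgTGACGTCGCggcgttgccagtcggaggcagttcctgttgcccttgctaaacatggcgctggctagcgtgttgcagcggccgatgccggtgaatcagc
Psmb6: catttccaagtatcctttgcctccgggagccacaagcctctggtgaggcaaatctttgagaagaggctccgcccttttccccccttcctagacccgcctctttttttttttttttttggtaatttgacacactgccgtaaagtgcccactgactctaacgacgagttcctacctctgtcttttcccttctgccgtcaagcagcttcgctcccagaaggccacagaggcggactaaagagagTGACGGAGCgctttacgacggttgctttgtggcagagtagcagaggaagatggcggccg

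The motifs were searched on both strands as TTCNNNGAA for GAS, GAAANNGAAA for the ISRE core and TGACNNNGC for the ARE, the element bound by the transcription factor Nfe2l2. Matches were found in 8.3%, 3.44% and 12.4% of 32851 RefSeq windows of this length. Psmb8 held TTCCCAGAA at bases -97 to -89 from its start. Psme1 held the ISRE core on the other strand, as TTTCGCTTTC at bases 9 to 18 after the start. Psmb5 held the ARE match TGACGTCGC at bases -47 to -39, and Psmb6 held TGACGGAGC at bases -9 to -1. The windows of Psmb9, Psmb10 and Psme2 held none of these 3 letter strings, and the table held no window for Psmb7. The RefSeq starts of Psmb8, Psmb9 and Psme1 lie 474, 434 and 371 bases downstream of the starts in the gene annotation of the counts, so these windows cover only 1 of the possible starts. A match to such a string is a description of the sequence and not a binding site.

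The genes lie on 5 chromosomes of the mm10 genome. Psmb9 (ENSMUSG00000096727.2, chr17:34181988-34187764, minus strand) and Psmb8 (ENSMUSG00000024338.14, chr17:34197721-34201454, plus strand) flank Tap1 in the MHC class II region, and the RefSeq starts of Psmb9 and Tap1 are 226 bases apart. Psmb10 (ENSMUSG00000031897.9) is at chr8:105935735-105938444 on the minus strand. Chromosome 14 carries Psme1 (ENSMUSG00000022216.17, chr14:55578123-55581529, plus strand), Psme2 (ENSMUSG00000079197.10, chr14:55587441-55591113, minus strand) and Psmb5 (ENSMUSG00000022193.7, chr14:54614119-54618022, minus strand). Psmb6 (ENSMUSG00000018286.6) is at chr11:70525367-70527858 on the plus strand and Psmb7 (ENSMUSG00000026750.6) at chr2:38588036-38644087 on the minus strand. Fragments were counted by strand, so the 212 exon bases that Psmb9 and Tap1 share on opposite strands did not add Tap1 fragments to Psmb9 as far as the library kept strand. The microRNA gene Mir686 lies on the same strand within Psmb5 and shares 109 exon bases with it.

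Libraries held between 15566122 and 37992642 counted fragments, with 23682133.5 as the median, and a single one of the 8 genes received between 365 and 7293 of them. No pair of libraries of a group agreed within sampling noise. Dicer1, whose intron was edited, had a median of 124 CPM in untreated WT and 87.1 CPM in untreated KO libraries. After IFNG these were 157 and 88.9 CPM. The KO clones differed, with 70.5 to 73.0 CPM in untreated KO1 and 101 to 108 CPM in untreated KO2. Untreated KO2 lay within the range of untreated WT1 (96.8 to 110 CPM). With IFNG all KO libraries (71.5 to 105 CPM) lay below all WT ones (132 to 171 CPM). All 8 macrophage markers listed were expressed, at a summed 4208 to 5621 CPM in untreated WT and 5896 to 6713 CPM in untreated KO libraries. Summed T cell, B cell and epithelial cell markers stayed at or below 0.158 CPM in every library. Fibroblast markers summed to between 0.331 and 2.92 CPM, nearly all of it Pdgfra. In bulk RNA, fewer cells with a transcript and less of it per cell cannot be told apart.

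Psmb9, the immuno counterpart of Psmb6, had the largest response of the 8 genes. Its levels are given as CPM, its counts relative to a TMM-scaled library total. In untreated WT1 the 3 libraries had 40.4, 33.6 and 33.97 CPM, against 85.1, 87.7 and 85.9 after IFNG. WT2 went from 23.5, 24.96 and 22.95 to 57.7, 58.0 and 64.2 CPM, and WT3 from 23.7, 20.1 and 22.7 to 58.9, 53.3 and 55.4 CPM. All treated WT libraries thus lay above all untreated ones, with WT1 the highest under either treatment. KO1 went from 22.7, 22.8 and 19.8 to 61.8, 64.4 and 72.1 CPM, and KO2 from 22.4, 25.7 and 24.6 to 81.2, 74.2 and 68.6 CPM. The untreated KO libraries were near those of WT2 and WT3, and the treated ones lay above treated WT3 and below treated WT1. The fold over untreated cells was 2.47 in pooled WT (log2FC 1.30, SE 0.145, adjusted p = 5.41e-07) and 3.08 in pooled KO (log2FC 1.62, SE 0.0749, adjusted p = 2.95e-10).

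Psmb10, which replaces Psmb7, rose from between 29.2 and 36.6 CPM (median 35.4) in untreated WT to between 60.2 and 68.8 CPM (median 65.3) with IFNG. In KO it rose from between 29.3 and 32.6 CPM (median 30.5) to between 60.5 and 73.1 CPM (median 67.7). The libraries of the treatments did not overlap in either genotype, and under each treatment the ranges of WT and KO overlapped. The fold was 1.92 in WT (log2FC 0.94, SE 0.0511, adjusted p = 1.12e-11) and 2.22 in KO (log2FC 1.15, SE 0.0515, adjusted p = 2.05e-10).

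Psmb8, which replaces Psmb5, had the highest untreated level of the immuno subunits per exon length (given below) and had the smallest fold among them. In WT1 it went from 131, 123 and 122 CPM to 189, 180 and 179 CPM. The values were lower in WT2, from 84.8, 83.2 and 79.8 to 115, 122 and 131 CPM, and in WT3, from 77.9, 74.8 and 79.9 to 122, 116 and 120 CPM. Untreated WT1 thus stood at the level that WT2 and WT3 reached only with IFNG, and pooled WT libraries of the treatments overlapped although those of a single clone did not. KO1 went from 117, 114 and 116 to 181, 187 and 192 CPM, and KO2 from 109, 115 and 116 to 197, 177 and 166 CPM. In KO the treated libraries were all above the untreated ones. The fold was 1.49 in pooled WT (log2FC 0.58, SE 0.142, adjusted p = 0.00372) and 1.62 in pooled KO (log2FC 0.69, SE 0.0397, adjusted p = 3.81e-09).

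**Figure D1:**
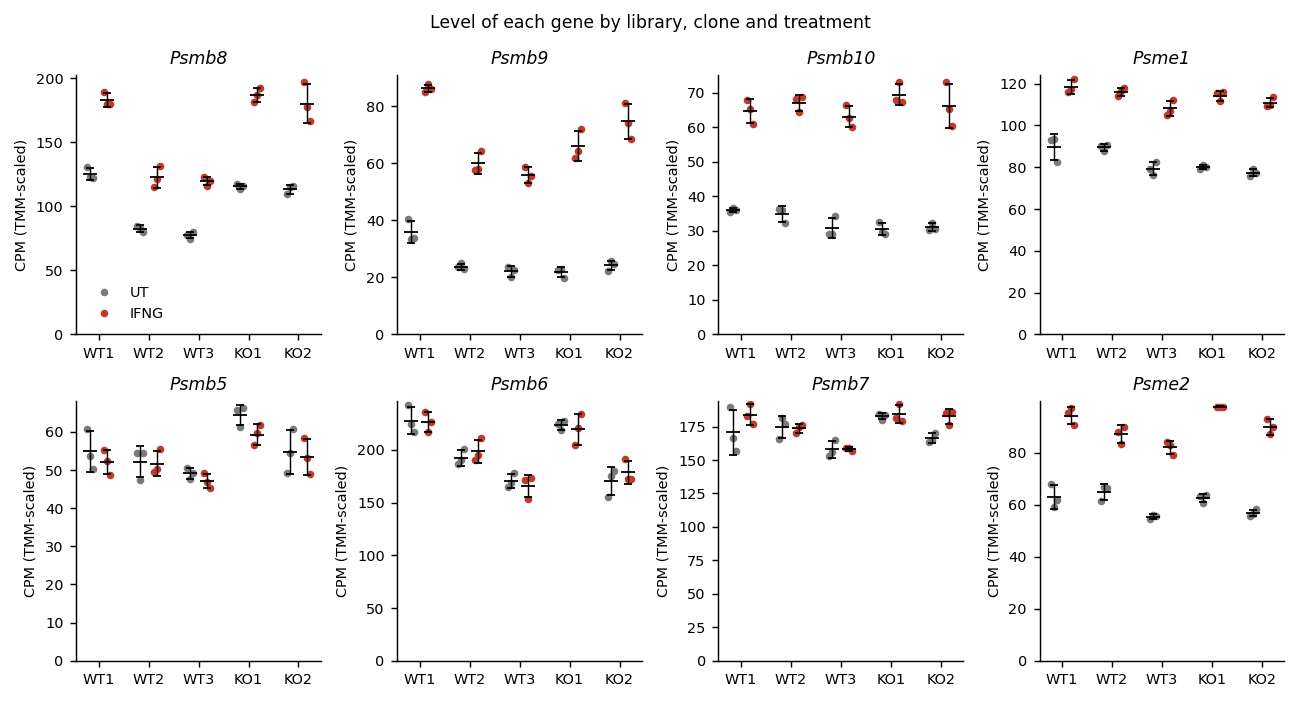
Level of each gene in every library. Each panel is 1 gene, the y axis is CPM after TMM scaling from 0, the x axis gives the 5 clones, gray points are untreated and red points IFNG-treated libraries, and the bars are the mean and SD of 3. The red points of Psmb8, Psmb9, Psmb10, Psme1 and Psme2 lie above the gray ones in all 5 clones, whereas they mix for Psmb5 and Psmb6, and WT1 stands above WT2 and WT3 for Psmb8 and Psmb9.

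The PA28 subunits rose in both genotypes, with a smaller log2FC than Psmb9 and Psmb10 in each of the 5 clones. Psme1 had between 76.4 and 93.3 CPM (median 87.8) in untreated WT and between 105 and 122 CPM (median 116) with IFNG. In KO it had between 76.0 and 81.3 CPM (median 79.1) and between 110 and 116 CPM (median 113). The fold was 1.33 in WT (log2FC 0.41, SE 0.0430, adjusted p = 2.16e-07) and 1.44 in KO (log2FC 0.53, SE 0.0271, adjusted p = 1.10e-09).

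Psme2, its partner in the ring, had between 54.4 and 68.1 CPM (median 61.6) in untreated WT and between 79.2 and 97.1 CPM (median 88.1) with IFNG. In KO these were between 55.7 and 63.6 CPM (median 59.5) and between 87.1 and 97.8 CPM (median 95.2). As for Psme1, no treated library fell into the untreated range in either genotype. The fold was 1.44 in WT (log2FC 0.53, SE 0.0511, adjusted p = 7.13e-08) and 1.58 in KO (log2FC 0.66, SE 0.0433, adjusted p = 1.65e-08).

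The value of Psme2 depends on how its fragments were split from a near-identical copy. Psme2b, a gene of 837 exon bases at chr11:48945354-48946190, matched the Psme2 transcript at 99.4% over 794 bases with 5 mismatches. Psme2b had a median of 23.6 CPM in the 15 untreated and 50.2 CPM in the 15 treated libraries, and its log2FC was 1.03 (SE 0.0532, adjusted p = 5.32e-12) in WT and 1.18 (SE 0.0491, adjusted p = 9.19e-11) in KO. It took 25.2% to 30.3% of the counts of both genes in untreated and 33.2% to 38.8% in treated libraries, ranges that did not overlap. With both genes summed, the log2FC of Psme2 was 0.69 (SE 0.0460) in WT and 0.83 (SE 0.0396) in KO. Counts of Psme2 and Psme2b are therefore uncertain singly.

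The 3 standard subunits stayed near their untreated levels. Psmb5 had between 47.5 and 60.7 CPM (median 50.5) in untreated and between 45.4 and 55.4 CPM (median 49.4) in treated WT libraries, and between 49.1 and 66.2 CPM (median 61.0) and between 48.9 and 61.7 CPM (median 57.4) in KO. The ranges of the treatments overlapped in both genotypes, and the log2FC was -0.044 (SE 0.0508, adjusted p = 0.620) in WT and -0.067 (SE 0.0743, adjusted p = 0.561) in KO. Psmb5 also has a near-identical copy, Gm3375 at chr7:3181093-3181888, with 98.9% identity over 796 bases and 8 mismatches. Gm3375 took a median of 43.7% of the counts of both genes in untreated and 45.4% in treated libraries. Its own log2FC was 0.0033 (adjusted p = 0.979) in WT and 0.0074 (adjusted p = 0.953) in KO, and that of Psmb5 with the copy added was -0.023 and -0.034.

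Psmb6 had a median of 190 CPM (165 to 242) in untreated and 195 CPM (154 to 236) in treated WT libraries. In KO the medians were 199 CPM (155 to 227) and 198 CPM (172 to 234). The spread of Psmb6 lay between clones and not between treatments, since WT1 and KO1 libraries were at 205 CPM or more under both treatments and those of WT3 and KO2 at 192 CPM or less. Its log2FC was 0.0051 (SE 0.0884, adjusted p = 0.983) in WT and 0.029 (SE 0.102, adjusted p = 0.874) in KO. Psmb7 had a median of 165 CPM (153 to 189) in untreated and 175 CPM (157 to 192) in treated WT libraries, and 175 CPM (164 to 184) and 183 CPM (176 to 192) in KO, with a log2FC of 0.041 (SE 0.0477, adjusted p = 0.624) in WT and 0.083 (SE 0.0362, adjusted p = 0.105) in KO.

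Within single clones, all 5 immuno and PA28 genes rose in all 5 clones, which is 25 of 25 tests, with adjusted p between 8.32e-14 and 0.000404. The share of all tested genes called higher was 11.8% in WT1, 17.4% in WT2, 18.6% in WT3, 16.2% in KO1 and 13.9% in KO2. In the pooled fits all 5 rose in both genotypes, where 14.8% of the genes tested were called higher and 13.9% lower in WT, and 15.8% higher and 14.8% lower in KO. The log2FC over clones was 0.54 to 0.72 for Psmb8, 1.25 to 1.63 for Psmb9, 0.83 to 1.22 for Psmb10, 0.39 to 0.54 for Psme1 and 0.44 to 0.67 for Psme2. Of the 15 tests of standard subunits within a clone, 1 passed, that of Psmb7 in KO2. There the 3 untreated libraries had 164, 165 and 171 CPM and the 3 treated ones 185, 176 and 186 CPM, without overlap (log2FC 0.13, SE 0.0440, adjusted p = 0.0366). This call was lost when any of the 3 untreated KO2 libraries or the first treated one was left out (adjusted p between 0.0662 and 0.129). In pooled KO, Psmb7 passed when the fit had a term for the clone (log2FC 0.083, adjusted p = 0.0412) and not with counts summed per clone (log2FC 0.072, adjusted p = 0.233). The standard subunits' log2FC within clones lay between -0.089 and 0.13, with SE between 0.0381 and 0.0798.

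**Figure D2:**
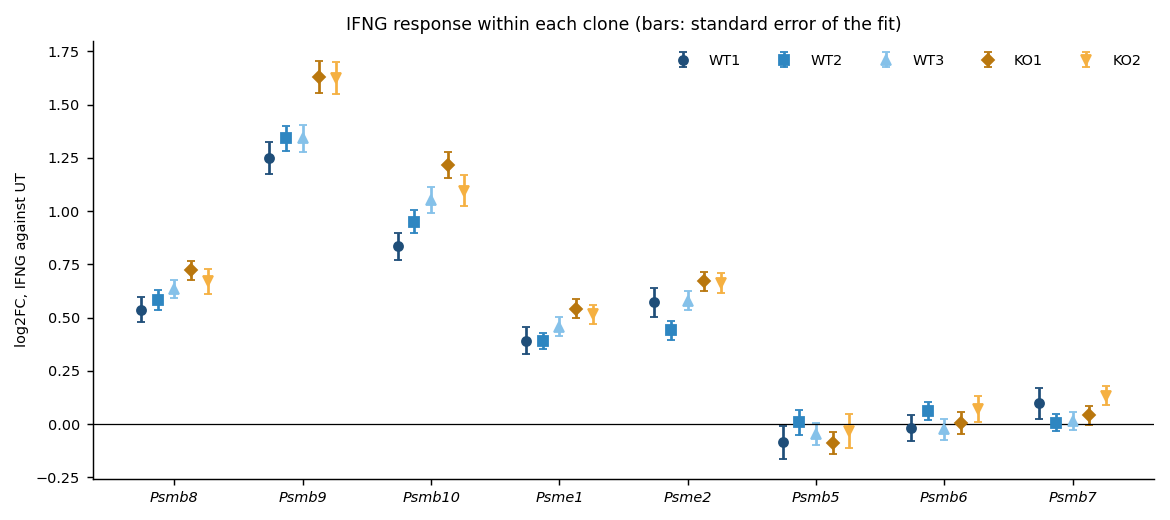
IFNG response of each gene within each clone. The y axis is log2FC of IFNG over UT from the edgeR fit of that clone's 6 libraries, symbols mark the clones (blue for WT, orange for KO), and bars are the SE. The 5 immuno and PA28 genes lie between 0.39 and 1.63 with the KO symbols above the WT ones, and the 3 standard subunits lie between -0.089 and 0.13.

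To compare each immuno subunit with the one it replaces, counts were scaled by exon length to FPKM, and the share of the immuno subunit in the sum of the pair was taken in each library. The Psmb8 share of Psmb8 and Psmb5 had a median of 37.0% in the 15 untreated libraries (32.5% to 44.4%) and 50.6% in the 15 treated ones (43.3% to 54.7%). The ranges overlapped where untreated WT1 reached the treated values of WT2, and within each clone they did not. The Psmb10 share of Psmb10 and Psmb7 went from 27.3% (24.2% to 31.6%) to 43.0% (39.5% to 45.6%). The Psmb9 share of Psmb9 and Psmb6 went from 6.30% (4.27% to 7.86%) to 14.9% (13.01% to 18.02%), so that Psmb6 transcripts still made up most of the pair after IFNG. The shares depend on the length used, and with the principal transcript in place of all exons the medians were 49.7% and 63.3% for Psmb8, 14.2% and 24.97% for Psmb10, and 7.19% and 16.9% for Psmb9. With the counts of Gm3375 added to Psmb5, the medians for Psmb8 were 25% and 36.4%.

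The change of a ratio within a clone does not depend on length or library size. The ratio of Psmb9 to Psmb6 rose 2.68-fold on average over the 5 clones (mean log2 change 1.42, SD 0.159, n = 5 clones, range 1.27 to 1.63). That of Psmb10 to Psmb7 rose 1.96-fold (0.97, SD 0.160, range 0.73 to 1.18) and that of Psmb8 to Psmb5 1.599-fold (0.68, SD 0.0881, range 0.58 to 0.81). All 3 had p = 1e-05, the smallest that 100000 permutations of the treatment within clones can give (two-sided permutation test, adjusted p = 1.3e-05 over 4 ratios). The ratio of Psme1 to Psme2 fell by 0.12 (log2, SD 0.0472) in the mean and fell in 5 of 5 clones (permutation p = 6e-05, adjusted p = 6e-05). With Psme2b added to Psme2 it fell by 0.29. None of the 4 ratio responses could be called different between KO and WT clones, since 3 against 2 clones cannot give an exact p below 0.1. The KO minus WT differences were 0.28 for Psmb9 to Psmb6 (exact permutation p = 0.1), 0.16 for Psmb10 to Psmb7 (exact p = 0.4), 0.13 for Psmb8 to Psmb5 (exact p = 0.2) and -0.021 for Psme1 to Psme2 (exact p = 0.7), with adjusted p between 0.4 and 0.7.

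**Figure D3:**
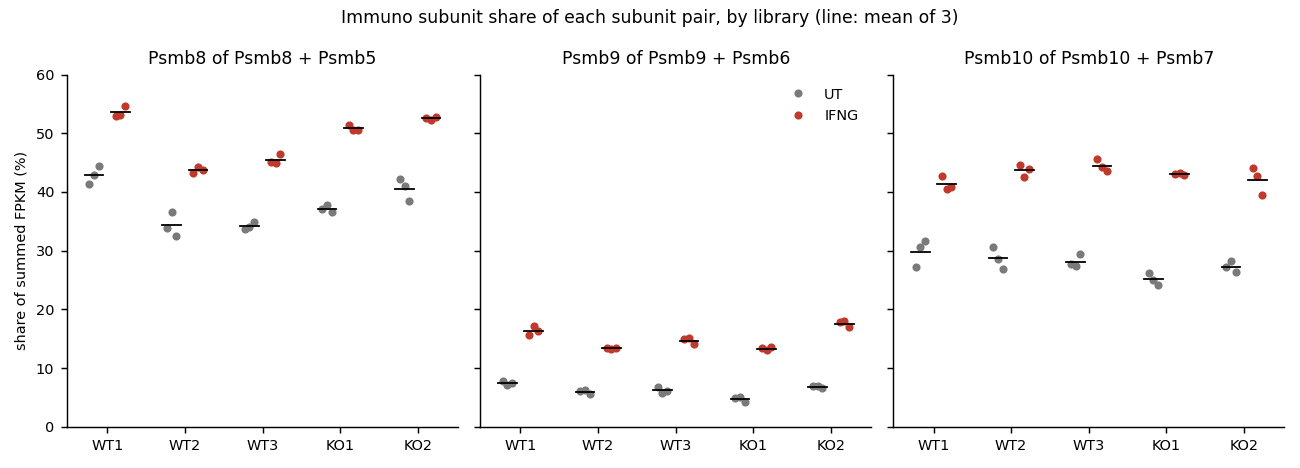
Share of the immuno subunit in each pair of subunits. The y axis is the share of summed FPKM in percent, each point is 1 library, gray for UT and red for IFNG, and lines are the means of 3. IFNG libraries lie above UT libraries in every clone, reaching 54.7% for Psmb8, 45.6% for Psmb10 and 18.02% for Psmb9.

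Per exon length, the order of the genes in untreated cells was Psmb6 (median 102 FPKM), Psmb5 (60.5), Psmb7 (48.6), Psmb8 (41.5), Psme1 (36.8), Psme2 (34.5), Psmb10 (18.99) and Psmb9 (6.42). Each of these levels was above the next in at least 14 of 15 libraries, except that Psmb8 exceeded Psme1 in only 9. After IFNG the order was Psmb6 (104 FPKM), Psmb8 (64.8), Psmb5 (58.1), Psmb7 (51.8), Psme1 (51.6), Psme2 (51.1), Psmb10 (38.9) and Psmb9 (17.6). Psmb8 was above Psmb5 in 9 of the 15 treated libraries, Psmb7 was above Psme1 in 8 and Psme1 above Psme2 in 8, so these neighbours did not differ beyond their spread. Psmb9 was the lowest of the 8 in all 30 libraries on this scale. The order turned on the length used. With the length of the principal transcript in place of all exons, Psmb6 and Psmb7 led the order in both treatments and Psmb5 ranked 6. Psmb8 then ranked 4 untreated and 3 after IFNG, above Psme1 in 9 of 15 treated libraries. Psmb9 was then the lowest in 14 of 15 untreated and 8 of 15 treated libraries.

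The untreated level differed among the 5 clones for 8 of 8 genes and the IFNG level for 6 of 8, where 70.8% and 71.5% of all genes tested did so. Psmb10 (adjusted p = 0.315) and Psme1 (adjusted p = 0.0501) did not pass for the IFNG level. Some of these calls turned on single clones. For the untreated level, Psmb9 lost its call without WT1 (adjusted p = 0.196), Psmb5 without KO1 (0.176) and Psmb7 without KO1 (0.0954) or WT3 (0.184), which left 6 to 8 of the 8 genes. For the IFNG level, Psmb5 lost its call without KO1 (0.201) or WT3 (0.0865) and Psmb7 without WT3 (0.459), which left 4 to 6, and Psme1 passed with at least 10 counts in every library (0.0292). Psmb8, Psmb6 and Psme2 passed for both levels whichever clone was left out. The size of the IFNG response passed a test across the clones for 0 of the 8 genes, where 3.68% of all genes passed, with the lowest adjusted p for Psmb9 (0.0712) and Psmb10 (0.138). Without the filter on low counts both of these passed (adjusted p = 0.000456 and 0.0178). At an unadjusted p under 0.05, Psmb9, Psmb10 and Psme2 passed with the filter, 3 of the 8 genes where 12.3% of all genes did.

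KO and WT libraries of the same treatment were compared to ask which levels differ between the genotypes. In untreated cells 2 of the 8 genes passed, a share of the 8 near that of all genes tested, 26.6%. Psme1 was lower in KO (log2FC -0.13, SE 0.0463, adjusted p = 0.0436) and Psmb5 higher (log2FC 0.19, SE 0.0674, adjusted p = 0.0477). With IFNG 2 of the 8 passed, where 23.9% of all genes did, namely Psmb8 (log2FC 0.38, SE 0.116, adjusted p = 0.0262) and Psmb5 (log2FC 0.17, SE 0.0581, adjusted p = 0.0452), both higher in KO. These comparisons of KO with WT were not rerun with the counts of the copy Gm3375 added to Psmb5. For Psmb8 the KO libraries (166 to 197 CPM) lay around those of treated WT1 (179 to 189 CPM) and above treated WT2 and WT3 (115 to 131 CPM). None of the 4 calls held with counts summed per clone (adjusted p between 0.510 and 0.630), in which the clone is the unit. The calls also turned on single clones. In untreated cells Psme1 lost its call without KO1, KO2, WT1 or WT2, and Psmb5 without KO1, WT2 or WT3. Both were also lost without the filter on low counts (adjusted p = 0.115 and 0.0519). Without WT1, Psmb8 was higher in KO in untreated cells too (log2FC 0.52, adjusted p = 1.56e-08) and with IFNG by 0.60 (adjusted p = 1.30e-07). Psmb9, Psme2, Psmb5 and Psmb7 passed beside it with IFNG, in a fit that called 5992 genes in place of 3258. Without KO1, WT2 or WT3 none of the 8 passed with IFNG. Of the 8 macrophage markers, 5 had a higher mean in KO and 3 a lower one, in untreated and in treated libraries. In untreated cells Adgre1 had a mean of 266 CPM in KO and 51.1 CPM in WT, and Mertk 22.7 and 48.7 CPM. The summed markers were higher in KO, and their part in the differences of the 8 genes was not tested.

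The interaction asked whether the IFNG response differed between genotypes. Psmb9 passed, as did 1.02% of all genes tested, and its log2FC was larger by 0.31 in KO (SE 0.0682, adjusted p = 0.0153). The differences for the others did not pass and were 0.20 for Psmb10 (SE 0.0624, adjusted p = 0.144), 0.13 for Psme2 (SE 0.0454, adjusted p = 0.278), 0.11 for Psme1 (SE 0.0388, adjusted p = 0.292) and 0.10 for Psmb8 (SE 0.0456, adjusted p = 0.455). For the standard subunits the differences were between -0.026 and 0.038. The Psmb9 call was lost without WT2 (adjusted p = 0.0767), KO1 (0.162) or KO2 (0.124) and with counts summed per clone (0.290), while the difference itself stayed between 0.29 and 0.32. For each of the 5 immuno and PA28 genes the responses of both KO clones were above those of all 3 WT clones, as were those of 11.8% of the 1922 genes called higher in pooled WT and tested in all clones. This was so for none of the standard subunits. The opposite order, both KO clones below all WT clones, was found for 14.2% of the same 1922 genes.

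The other subunits of the core particle moved less. Of 13 genes listed 11 could be tested, and 2 rose in WT and 5 in KO, where 14.8% and 15.8% of all genes tested did. The median log2FC of the list was 0.037 in WT and 0.11 in KO, beside -0.0028 and -0.0037 over all genes. Psma3 (log2FC 0.28 in WT, adjusted p = 0.000258, and 0.34 in KO, adjusted p = 0.0108) and Psma5 (0.26, adjusted p = 1.48e-06, and 0.33, adjusted p = 1.54e-06), both alpha subunits of the outer rings, rose in both. The further 3 in KO were Psma2, Psma4 and Psma7 with log2FC of 0.13, 0.17 and 0.14. In WT their log2FC was 0.080, 0.13 and 0.13 (adjusted p = 0.0717, 0.0776 and 0.704). None of the 3 passed in the interaction (adjusted p between 0.824 and 0.996). The untested genes were Psma8 and Psmb11, the testis and thymus subunits, with no count or next to none.

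The 19S cap binds and unfolds ubiquitinated proteins, and the 22 genes listed for it include subunits and assembly factors. Of these genes, 1 rose and 1 fell in WT, and 2 rose and 1 fell in KO (median log2FC 0.033 and 0.053). Among all genes tested 14.8% were called higher and 13.9% lower in WT, and 15.8% and 14.8% in KO. Psmd5, which acts in the assembly of the cap, fell in both genotypes (log2FC -0.15, adjusted p = 0.00265, and -0.12, adjusted p = 0.0440). Psmd10 rose in WT (0.14), and Psmd6 (0.15) and Psmd7 (0.19) rose in KO. In the other genotype the log2FC was 0.25 for Psmd10 (adjusted p = 0.106), 0.067 for Psmd6 (0.274) and 0.13 for Psmd7 (0.0569). None of the 3 passed in the interaction (adjusted p between 0.692 and 0.796). Of 8 other regulators and assembly factors 3 rose in WT and 2 in KO (median 0.049 and 0.032). Pomp, the chaperone that helps the catalytic subunits into the core particle, rose by 0.39 in WT (SE 0.0502, adjusted p = 4.22e-06) and 0.48 in KO (SE 0.0323, adjusted p = 2.06e-08), from 74.4 to 96.8 and from 75.9 to 105 CPM in the mean. Psme4, the PA200 activator, rose by 0.15 and 0.17. Psmf1, the inhibitor PI31, rose by 0.12 in WT, with a log2FC of 0.047 in KO (adjusted p = 0.331) and no call in the interaction (adjusted p = 0.600). Psme3, the nuclear PA28 gamma, did not pass (0.050 and 0.040, adjusted p = 0.790 and 0.417).

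Downstream of the proteasome, 6 of 9 genes of peptide transport and loading rose in both genotypes and the other 3 did not pass (median log2FC 0.54 in WT and 0.64 in KO). Tap1, which shares its promoter region with Psmb9, went from a mean of 22.7 CPM (SD 5.12, n = 9) to 205 CPM (SD 40.1) in WT and from 21.2 (SD 1.63, n = 6) to 260 CPM (SD 15.1) in KO. Its log2FC of 3.18 in WT (SE 0.140, adjusted p = 4.42e-13) and 3.63 in KO (SE 0.0586, adjusted p = 1.68e-15) was larger than that of Psmb9 in both genotypes, without a test of this difference. Tap2, its partner in the transporter, rose by 1.05 (adjusted p = 3.64e-06) and 1.29 (adjusted p = 7.63e-10), and Tapbpl, a peptide editor of MHC class I, by 1.59 (adjusted p = 8.41e-15) and 1.76 (adjusted p = 8.81e-12). Tapbp, B2m and Erap1, the tapasin chaperone, the light chain of MHC class I and the peptide-trimming protease, rose by between 0.33 and 0.83 in WT. The general chaperones Calr, Canx and Pdia3 did not pass, with log2FC between -0.017 and 0.069.

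Among 7 transcription factors reported for these genes, 5 rose and 2 fell in WT, and the same 5 rose in KO while the other 2 did not pass (median log2FC 0.98 and 1.35). Irf1 went from a mean of 23.5 to 805 CPM in WT (log2FC 5.10, SE 0.0663, adjusted p = 3.07e-21) and from 21.4 to 746 CPM in KO (5.13, SE 0.114, adjusted p = 6.04e-14). Nlrc5, the transactivator of MHC class I genes, rose by 3.94 in WT (adjusted p = 6.20e-17) and 4.05 in KO (adjusted p = 6.17e-13), and Irf8, a factor of myeloid differentiation, by 2.47 (adjusted p = 5.87e-10) and 2.32 (adjusted p = 2.66e-12). Irf9 and Irf2 rose as well. Nfe2l2, a factor of the antioxidant response whose element was searched above, fell by 0.35 in WT (adjusted p = 5.26e-07), with a KO log2FC of -0.12 (adjusted p = 0.0660) that passed in a fit with a term for the clone (adjusted p = 0.0162). Nfe2l1, which raises proteasome genes when the proteasome is blocked, fell by 0.11 in WT (adjusted p = 0.0173), with -0.053 in KO (adjusted p = 0.257).

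**Figure D4:**
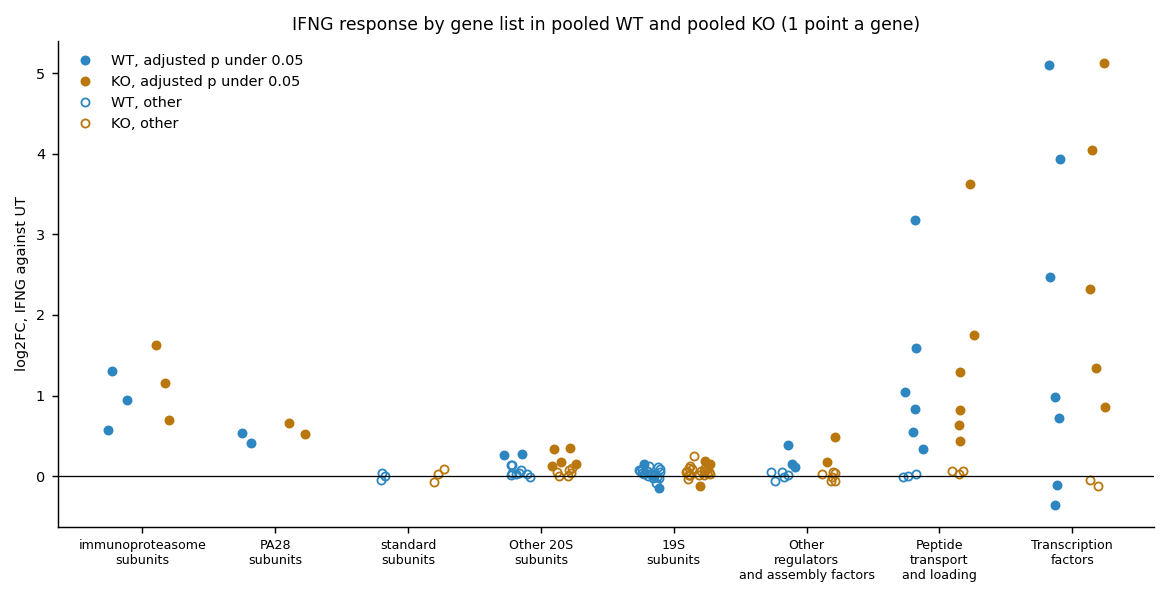
IFNG response of the listed genes. Each point is 1 gene, the y axis is log2FC of IFNG over UT, blue is pooled WT and orange pooled KO, and filled points passed an adjusted p of 0.05. The points of the standard, other 20S and 19S lists lie between -0.15 and 0.34, while Irf1 reaches 5.13 and Tap1 3.63.

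Among the 61 genes within 50 kb of one of the 8, 25 could be tested in WT and 24 in KO, of which 5 and 4 rose and the rest did not pass. Of all genes tested, 14.8% were called higher in WT and 15.8% in KO, so the share of the neighbours that rose was near that of all genes. The 8 genes themselves are left out of these numbers. Tap1 and Tap2 lie beside Psmb8 and Psmb9. Rnf31, a subunit of the linear ubiquitin ligase complex, starts 595 bases from Psme2 on the other strand and rose by 1.13 in WT (adjusted p = 6.24e-15) and 1.20 in KO (adjusted p = 8.16e-10), a larger log2FC than that of Psme1 or Psme2. Irf9, a factor of interferon signaling, lies 12458 bases from Psme2 and rose by 0.98 (adjusted p = 1.84e-08) and 1.35 (adjusted p = 2.75e-10). The gene 4931414P19Rik, 8126 bases from Psmb5, rose by 0.36 in WT (adjusted p = 0.000645), with a log2FC of 0.27 in KO (adjusted p = 0.121).

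The genes whose pattern was most like that of a member were found by Pearson's r of log2(CPM + 0.5) over the 30 libraries among 12345 genes. The points share clone and treatment, so r is a description. Psmb9 was most like Csrnp1 (r = 0.988), Pik3ap1 (0.982) and Irf8 (0.979). Psmb10 was most like Rnf213, Ly6a and Igtp (all 0.984). Psmb8, whose level also differed among clones, was most like Ogfr (0.986), Cebpb (0.973) and Il13ra1 (0.968). Psme1 was most like Ddx58 (0.966), Csf1 (0.965) and Gm5831 (0.964), and Psme2 most like Trim30d (0.968), Kyat3 (0.967) and Slc39a2 (0.966). Among themselves Psmb9, Psmb10, Psme1 and Psme2 had r between 0.940 and 0.958, while Psmb8 had between 0.712 and 0.839 with these 4. The standard subunits had r between 0.590 and 0.640 with each other and between -0.170 and 0.507 with Psmb9, Psmb10, Psme1 and Psme2. With Psmb8 their r was 0.290 for Psmb5, 0.426 for Psmb6 and 0.587 for Psmb7. Their most similar genes were Cox8a (0.905) for Psmb5, Aldh3b1 (0.927) for Psmb6 and Gm9761 (0.914) for Psmb7. With the 10 means of clone and treatment in place of the libraries, between 0 (Psmb5) and 3 (Psmb6) of the 3 closest genes of a member were found again.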

How the data were processed

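RNA-seq counts of J774A.1 cells were analysed. The authors deposited unnormalized fragment counts for every gene, which they made with BBDuk trimming, HISAT2 2.1.0 alignment to mm10, removal of fragments without a unique alignment, merging of technical replicates and featureCounts 1.6.2 in reversely stranded mode, in which a fragment over overlapping genes was counted for each. A fragment shared by near-identical genes was therefore lost, and the split of counts between such genes rests on the fragments that differ. The paper names RefSeq and the table headers name Gencode vM18. Symbols and lengths came from GENCODE vM21 by gene identifier, and 67 of 54146 identifiers had no symbol. WT2 and WT3 have other names in the column headers and were identified through deposited tables that use both. The columns carry no replicate numbers. Values were read from the table that holds all 30 libraries. A further 13 tables with subsets of it were not used. RNA input and adapter kinds are named in the labels without being assigned to libraries, so a check for batch was not possible.

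Tests across genes were edgeR 4.0.16 quasi-likelihood F tests (R 4.3.3) after its expression filter and TMM scaling, and p-values were adjusted over all genes tested by the Benjamini-Hochberg method with a threshold of 0.05. SE was computed as the size of the log2FC over the root of its F statistic. Treatments were compared in each clone and in pooled WT and KO, genotypes within each treatment, and the interaction over 30 libraries with clone as a term. The main fits of pooled WT, pooled KO and KO against WT had no clone term. Levels are CPM from TMM factors over 14870 genes, and FPKM is CPM per kb of all annotated exons. Ratios had 0.5 counts added and were tested by 100000 permutations within clones. DESeq2 1.42.0, RLE factors, other count filters, a clone term, sums of counts per clone, other added counts and leaving out libraries or clones were alternatives. Leaving out clones in the tests across clones, principal transcript lengths (for the ratios and the order of levels) and adding near-identical copies were chosen after seeing the data. Scripts were tested on simulated data. Tables were made with Python 3.11.15. The SE of a gene depends on its counts and on the spread between libraries. Without a term for the clone it also depends on the spread between clones.

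The 8 genes and the lists were chosen with earlier results of these data known, and 1 transcription factor of these lists is not reported here. From each list the 3 genes with the largest log2FC in WT among those called in both genotypes were named, with every gene called in the interaction, and other list genes and the near-identical copies were named after their values were seen.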

Additional observations from a re-analysis of the deposited data

Results flagged for a closer look

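The IFNG response differed between KO and WT, by the edgeR interaction term, for 4 of the genes described. For Psmb9 the log2FC was larger in KO by 0.31 (SE 0.0682, adjusted p = 0.0153). For Tap1, its neighbour across the shared promoter region, it was larger by 0.44 (SE 0.0589, adjusted p = 5.66e-05), and this call held when any 1 of the 5 clones was left out (0.34 to 0.53). For Irf9 it was larger by 0.35 (SE 0.0702, adjusted p = 0.00681), a call lost without KO1 or WT2, with values from 0.28 to 0.42. For Nfe2l2, which fell in WT, the log2FC was higher in KO by 0.22 (SE 0.0541, adjusted p = 0.0357), a call lost without KO1, KO2, WT2 or WT3, with values from 0.18 to 0.30. With counts summed per clone none of these 4 calls held, and the adjusted p was lowest for Tap1 (0.112). Among all genes tested 1.02% were called. The mean untreated level of Irf9 was 24.2 CPM in WT and 17.1 CPM in KO. In 32 sets of library values tested, no member had a library far from the others of its set.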

How the results depend on the processing

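The 25 calls of the immuno and PA28 genes within clones and their 10 pooled calls kept direction and threshold under every alternative run, and the mean responses of the 4 ratios did so too. The calls between genotypes did not. With counts summed per clone, KO against WT called 1 gene untreated and 1 with IFNG in place of 3689 and 3258, and 0 of the 8 members in place of 2 and 2, and the interaction called 2 genes and 0 members in place of 150 and 1, where the unit becomes 3 against 2 clones. Without a count filter KO against WT called 0 members untreated and 1 with IFNG, the interaction 384 genes and 2 members, and the response across clones 919 genes in place of 547 and 2 members in place of 0. With at least 10 counts in every library, KO against WT untreated called 1 member. With clone as a block pooled WT called 6367 genes in place of 3840. Leaving out 1 clone at a time, KO against WT untreated called 1674 to 6472 genes and 0 to 2 members, KO against WT with IFNG 1411 to 5992 genes and 0 to 5 members, the interaction 21 to 570 genes and 0 to 2 members, and the response across clones 319 to 516 genes. The extremes of the KO against WT and interaction gene counts were those without KO1 and without WT1, and the cause was not tested. The difference between KO and WT in the response of the Psme1 to Psme2 ratio ran from -0.053 to 0.011 and changed sign without WT2. For Irf8 with IFNG the log2FC of KO over WT did not pass with all clones and ran from -0.19 to 0.27 when 1 clone was left out, above 0 without KO1 and without WT1, and it passed without WT1. Of the members' single values, 538 kept their side of the threshold and their direction under the settings that keep all libraries, 5 gained and 9 lost a call, and 485, 7 and 28 did so when a library or clone was left out. No paired analysis was possible because the columns carry no replicate numbers, so the planned fits with a replicate block were not run.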
